A study of Arabidopsis thaliana with 6 samples.

Results

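Chaperonins and heat shock proteins are described here in the root apex of Arabidopsis thaliana, as 80 of the 22746 probe sets tested on the arrays. Members were the probe sets with a nuclear locus whose annotation in the authors' deposited table names a chaperonin or a heat shock protein. Annotations with the words DNAJ or transcription factor were left out, but J-domain proteins annotated otherwise remained. Each of the 80 had a locus of its own, and all are accounted for because no filter on low signal was applied. By class there were 20 chaperonins, 10 HSP70, 3 HSP90, 16 small heat shock proteins and 31 others. Of the others, 22 are annotated as binding heat shock proteins, 8 as related to them or by family only, and 1 is HSP101, so the wording takes in proteins that are not heat shock proteins themselves.

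The tissue came from wild-type seedlings of the Columbia accession (Col-0), 8 days old, grown upright on solid medium in continuous light and fixed in RNAlater. Zone II was the piece of 1.5 mm that holds elongating cells and the root hairs, and zone I was the tip of 0.5 mm that holds the root cap and the dividing cells. There were 3 arrays of each zone, and no treatment or heat stress is named in the labels. The growth text also mentions cell cultures of the wild type and of an ARG1 knockout, but all 6 samples are labelled as wild-type root. The labels do not say whether the 3 arrays of a zone came from separate batches of seedlings, so p-values measure only how far these arrays vary, and that variation may be technical.

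Chaperones help other proteins reach and keep their folded shape. Chaperonins are large double rings that enclose an unfolded protein: the CCT complex does so in the cytosol, where actin and tubulin are among its clients, and HSP60 in mitochondria and CPN60 in plastids work with a lid made of small co-chaperonins. HSP70 proteins bind exposed stretches of unfolded chains in cycles driven by ATP, with J-domain proteins as partners, and HSP90 proteins act late, on kinases, receptors and other signalling proteins. Small heat shock proteins hold unfolded proteins without ATP, and many are made in quantity only under heat or in seeds.

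All arrays had been scaled by the authors to the same trimmed mean, with median signals between 132.1 and 149.3, and 35.2% to 39.6% of probe sets per array lay below a signal of 64. Zone II markers marked zone II and zone I markers marked zone I. At an adjusted p under 0.05, all 12 markers of root hairs, endodermis barrier and xylem were called higher in zone II. Of 21 markers of mitosis, meristem, epidermal fate and root cap, 18 were called higher in zone I and none higher in zone II. The mitosis markers stood apart on zone II array 1, where their mean log2 signal was 7.22, against 4.27 and 4.32 on zone II arrays 2 and 3. The mean of the 4 meristem and epidermal fate markers went the other way, at 3.20 on zone II array 1 against 4.36 and 5.13. Of these markers PLT3 was highest on zone II array 1, with 73.9 against 5.5 and 41.7. PLT1 and PLT2 lay below 64 on every zone II array, and WER had 30.9, 159.7 and 416.8 on zone II arrays 1, 2 and 3. The root cap markers were lowest in zone I on array 1, with a mean log2 signal of 6.18 against 8.00 and 8.10. In these bulk samples fewer cells of a type and less RNA per cell cannot be told apart.

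Differences are log2 of zone II minus log2 of zone I, so a negative value is lower in zone II. They carry the standard error of the limma fit (SE, n = 3 per zone), and calls were made at an adjusted p under 0.05. Of the 80 members, 39 were called lower in zone II and 11 were called higher in zone II, and 30 were not called. Among all probe sets tested, 19.8% were called lower in zone II and 18.1% were called higher in zone II, 37.9% in all. The arrays of the zones did not overlap for 60 members, 44 lower in zone II and 16 higher in zone II, against 49.9% of all probe sets, 26.4% lower and 23.5% higher. The median difference of the members was -0.69 and that of all probe sets was -0.04. The classes differed in these counts. The members called lower in zone II were 19 of 20 chaperonins, 6 of 10 HSP70, 2 of 3 HSP90, 3 of 16 small heat shock proteins and 9 of 31 others.

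**Figure D1:**
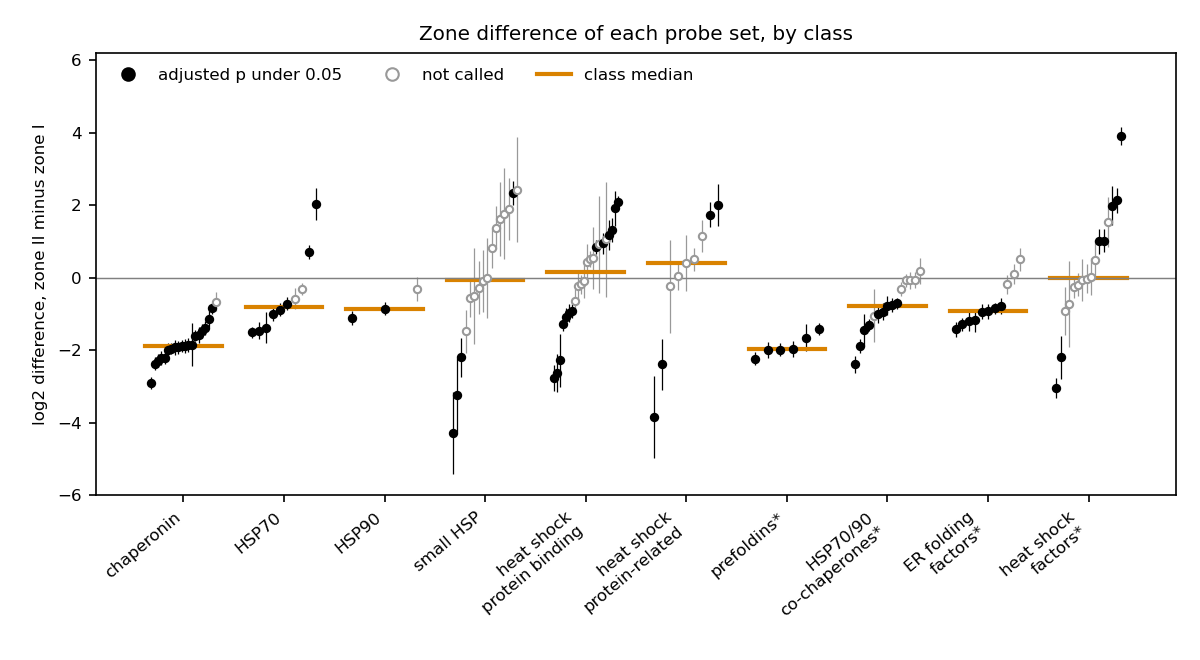
Log2 difference, zone II minus zone I, of each probe set with its standard error, by class (n = 3 arrays per zone); filled points were called at an adjusted p under 0.05, orange lines are class medians, HSP101 stands with the heat shock protein-related members, and an asterisk marks gene lists outside the 80 members, apart from ERDJ3B and P58IPK. Chaperonins and prefoldins lie below 0 throughout, with medians of -1.89 and -1.98, while small heat shock proteins and heat shock factors spread to both sides.

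The chaperonins were lower in zone II as a class. All 20 had zone II arrays that did not overlap the zone I arrays, against the 26.4% of all probe sets with zone I above. Their differences ran from -2.91 to -0.67 with a median of -1.89, or -1.82 after 64 was added to every signal, and 18 were at least 2-fold lower and called, against 16.6% of all probe sets. The member that was not called was CHL-CPN10 (AT2G44650), a plastid co-chaperonin, at -0.67 ± 0.26 with an adjusted p of 0.0673.

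The CCT ring of the cytosol was represented by 8 members, placed there by their loci. The annotations call 1 of them, AT1G24510, the epsilon subunit of the T-complex and the other 7 putative chaperonins. All 8 were lower in zone II, within a narrow range of -2.29 to -1.39 and with SE between 0.17 and 0.20. AT3G18190 had signals of 639.4, 744.9 and 811.2 in zone II, against 3250, 3575 and 3887 in zone I. The lowest zone I array was thus far above the highest zone II array, and the difference was -2.29 ± 0.18 (adjusted p = 5.96e-06), a 4.89-fold lower signal. AT3G03960 had 1208, 1340 and 1856 in zone II, against 6297, 7234 and 6589 in zone I (-2.21 ± 0.19, adjusted p = 9.68e-06).

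AT5G16070 was the most even of these across arrays. Its signals were 531.9, 581.5 and 618.4 in zone II, against 2620, 2644 and 2740 in zone I, a difference of -2.21 ± 0.17 (adjusted p = 6.24e-06). AT5G20890 differed least in the complex, with 3284, 4078 and 5318 in zone II, against 9395, 11598 and 11829 in zone I (-1.39 ± 0.20, adjusted p = 0.000236). The other 4 lay at -2.00 (AT3G11830), -1.92 (AT1G24510), -1.88 (AT3G02530) and -1.47 (AT5G26360). TCP-1 (AT3G20050), a subunit of the same ring whose annotation does not carry the word chaperonin, is no member by the rule and lay at -1.78 ± 0.19 (adjusted p = 3.59e-05), inside the range of the 8.

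Of the zone II arrays, array 1 had the highest mean of the mitosis markers and the lowest of the meristem and epidermal fate markers. Of the latter, PLT1 and PLT2 lay below 64 throughout zone II and PLT3 went the other way. No link of the markers to the chaperonins was tested. On zone II array 1 all 8 CCT members were lower than the average of the other zone II arrays, with a median log2 deviation of -0.42. The 4 plastid CPN60 members were all higher there, with a median deviation of 0.21, and 8 of the 20 chaperonins were higher in all. The mean log2 signals of the 8 CCT members were 10.17, 10.47 and 10.65 in zone II, against 12.26, 12.37 and 12.44 in zone I. The chaperonins as a class moved little when single arrays were left out: the median stayed between -1.99 and -1.80, and 18 or 19 were called.

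**Figure D2:**
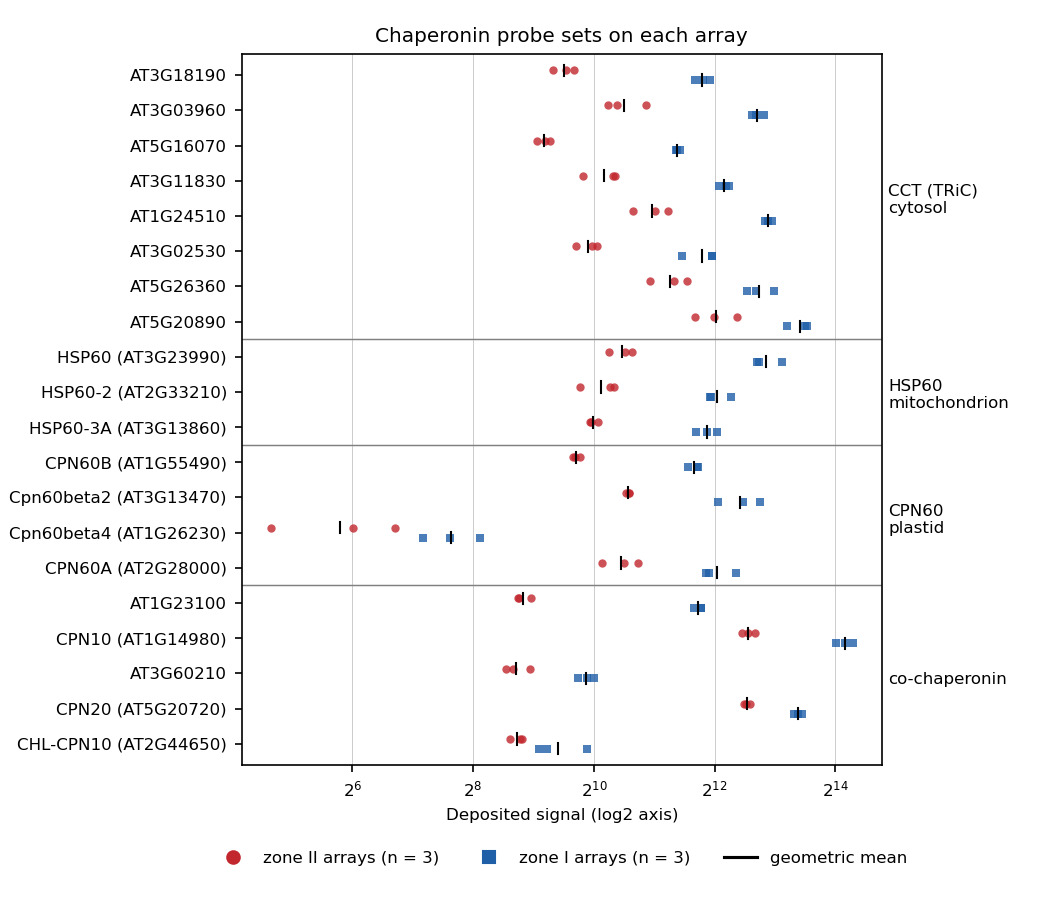
Deposited signal (log2 axis) of the 20 chaperonin probe sets on each of the 3 zone II arrays (red circles) and 3 zone I arrays (blue squares), with geometric means as black bars and subclasses marked at the right. In every row all zone II points lie left of all zone I points, most narrowly for CHL-CPN10 and Cpn60beta4.

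The 3 mitochondrial HSP60 genes were all lower in zone II. HSP60 (AT3G23990) had signals of 1216, 1460 and 1582 in zone II, against 6786, 8828 and 6624 in zone I, a 5.21-fold lower signal (-2.38 ± 0.18, adjusted p = 5.46e-06). HSP60-2 (AT2G33210) had 1226, 1284 and 868.6 in zone II, against 3902, 4932 and 3931 in zone I (-1.93 ± 0.20, adjusted p = 2.91e-05). HSP60-3A (AT3G13860) had 987.9, 1067 and 978.1 in zone II, against 3297, 4213 and 3761 in zone I (-1.89 ± 0.17, adjusted p = 1.30e-05). No zone II array came near the lowest zone I array for any of the 3.

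The plastid CPN60 genes, which encode the alpha and beta subunits of the plastid ring, were lower in zone II in 4 of 4 members. CPN60B (AT1G55490) had 874.7, 807.9 and 826.8 in zone II, against 3032, 3344 and 3385 in zone I (-1.96 ± 0.16, adjusted p = 8.52e-06). Cpn60beta2 (AT3G13470) was nearly constant in zone II, with 1525, 1530 and 1481, against 4250, 6930 and 5642 in zone I (-1.86 ± 0.19, adjusted p = 3.03e-05). CPN60A (AT2G28000), the alpha subunit, lay at -1.58. Cpn60beta4 (AT1G26230) lay near 64 in zone II and varied widely there, with 64.2, 25 and 104.7 in zone II, against 144.4, 276.7 and 196.6 in zone I. Its difference was -1.85 ± 0.60 (adjusted p = 0.0317), or -1.09 with 64 added. The call did not hold when zone II array 2 was left out (-1.28), when zone I array 2 (-1.61) or array 3 (-1.86) was, or when array 1 of each zone was (-2.19). It did not hold without an intensity trend in the fit either (adjusted p = 0.0651). Cpn60alpha2 and Cpn60beta3, outside the wording of the rule, lay at -2.42 and -1.10 and were both called, the first at -1.20 with 64 added.

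The co-chaperonins spread more widely than the rings. AT1G23100, annotated as a putative 10 kDa chaperonin, had the largest difference of all chaperonins: 428.4, 434.4 and 499.7 in zone II, against 3498, 3224 and 3482 in zone I, a 7.50-fold lower signal (-2.91 ± 0.18, adjusted p = 1.95e-06). CPN10 (AT1G14980), the mitochondrial lid protein, had 6488, 5599 and 5976 in zone II, against 16589, 20024 and 18363 in zone I (-1.60 ± 0.15, adjusted p = 1.79e-05). The zone difference of AT1G23100 was thus the larger of the pair by 1.30 on the log2 scale. This pair was set side by side after its values were seen, so no test is given.

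The plastid co-chaperonins differed less. AT3G60210 had 406.0, 492.7 and 371.2 in zone II, against 1024, 941.6 and 850.6 in zone I (-1.16 ± 0.22, adjusted p = 0.00158). CPN20 (AT5G20720), a fused double-domain form of the plastid lid, lay at -0.85 ± 0.14 (adjusted p = 0.000755). CHL-CPN10, the member without a call, had 448.0, 437.8 and 388.7 in zone II, against 950.4, 595.4 and 542.8 in zone I.

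Of the 10 HSP70 members, 6 were called lower in zone II, or 60.0%, against 19.8% of all probe sets. The 2 of 10 called higher in zone II are near the 18.1% of all probe sets. The median was -0.81, and leaving out single arrays moved it between -0.88 and -0.72. None had a zone mean under 64. The mitochondrial and plastid forms were all lower in zone II. The mitochondrial mtHsc70-1 (AT4G37910) had 2840, 2956 and 2725 in zone II, against 7911, 8211 and 8223 in zone I, with the smallest spread of the class (-1.52 ± 0.14, adjusted p = 1.79e-05). The plastid cpHsc70-1 (AT4G24280) had 588.5, 979.7 and 667.5 in zone II, against 2053, 2484 and 1579 in zone I (-1.46 ± 0.25, adjusted p = 0.000721). Its relative cpHsc70-2 (AT5G49910) lay at -0.89 ± 0.18 (adjusted p = 0.00243).

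The 5 cytosolic HSP70 genes were divided. HSC70-1 (AT5G02500), the main constitutive form, had 21638, 28783 and 25768 in zone II, against 36043, 48680 and 40859 in zone I. The zones did not overlap, and the difference was -0.72 ± 0.18 (adjusted p = 0.00839), or adjusted p = 0.0854 without the intensity trend. Hsp70-2 (AT5G02490) lies directly next to HSC70-1 on the chromosome and was also lower in zone II, with 466.2, 405.0 and 208.9, against 518.6, 1723 and 778.8 in zone I (-1.38 ± 0.43, adjusted p = 0.0266). The narrow gap between 466.2 and 518.6 is that between array 1 of the zones. Its call was lost without zone II array 3 (-1.03), without zone I array 2 (-0.90), and without the intensity trend (adjusted p = 0.119).

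HSP70 (AT3G12580), a form known to be induced by heat, went the other way. It had 1320, 513.2 and 336.9 in zone II, against 161.4, 159.8 and 128.5 in zone I, a 4.10-fold higher signal (2.04 ± 0.45, adjusted p = 0.00397). Zone II array 1 was by far the highest of the 3. Of the zone II arrays it also had the highest mean of the mitosis markers and the lowest of the meristem and epidermal fate markers. Of the latter, PLT1 and PLT2 lay below 64 throughout zone II and PLT3 went the other way. A link of the markers to HSP70 was not tested. Without zone II array 1 the difference of HSP70 was 1.48 and still called. Hsp70b (AT1G16030), known as heat-inducible too, lay at -0.58 ± 0.29 (adjusted p = 0.143), with 255.7, 226.9 and 188.9 in zone II, against 346.3, 328.2 and 321.4 in zone I. AT3G09440, annotated as HSC70-3, lay at -0.32 ± 0.16 (adjusted p = 0.138). Between HSP70 and HSC70-1, a pair chosen after its values were seen, the zone differences were 2.76 apart on the log2 scale.

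The members AT1G11660 and AT4G16660, placed by locus with the larger HSP110-type relatives that help HSP70 exchange its nucleotide, moved in opposite directions. AT1G11660 had 2360, 3142 and 3262 in zone II, against 1729, 1954 and 1655 in zone I (0.70 ± 0.18, adjusted p = 0.0101, and 0.0861 without the intensity trend). AT4G16660 had 1831, 2043 and 2598 in zone II, against 3730, 5062 and 4163 in zone I (-1.01 ± 0.19, adjusted p = 0.00160).

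**Figure D3:**
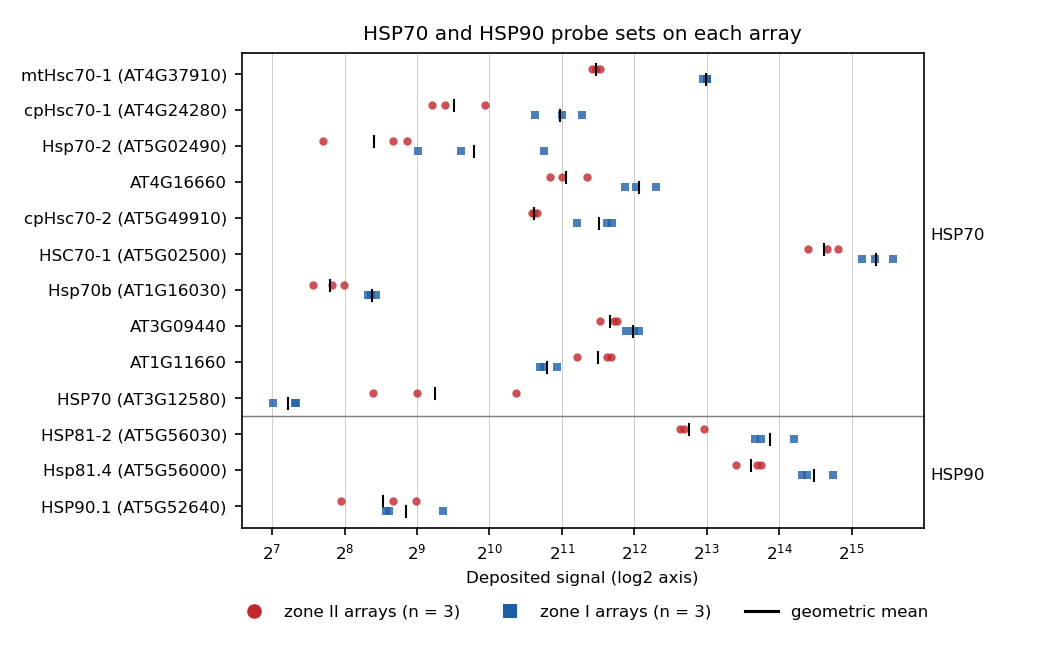
Deposited signal (log2 axis) of the 10 HSP70 and 3 HSP90 probe sets on each of the 3 zone II arrays (red circles) and 3 zone I arrays (blue squares), ordered by difference within class, with geometric means as black bars. AT1G11660 and HSP70 (AT3G12580) are the rows with zone II on the right, and HSP90.1 is the row where the zones overlap.

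Of the HSP90 members, all 3 cytosolic, 2 were called lower in zone II, against 19.8% of all probe sets. HSP81-2 (AT5G56030) had 6591, 7995 and 6349 in zone II, against 13726, 18924 and 13056 in zone I (-1.11 ± 0.18, adjusted p = 0.000677). Hsp81.4 (AT5G56000) had 13736, 13282 and 10880 in zone II, against 20401, 27476 and 21354 in zone I (-0.86 ± 0.18, adjusted p = 0.00251, and 0.0507 without the intensity trend). The 2 genes stand close together, with 2 protein-coding genes between them, and the Hsp81.4 probe set is of the s_at kind, which can also read near-identical transcripts, so its gene is uncertain. HSP90.1 (AT5G52640), the heat-inducible form, had 505.2, 406.7 and 247.6 in zone II, against 657.0, 379.6 and 393.3 in zone I. Its zones overlapped and it was not called (-0.32 ± 0.33, adjusted p = 0.516).

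Further HSP70 and HSP90 genes were measured whose annotation lacks the words of the rule. The organelle HSP90 genes were called lower in zone II in 3 of 3, against 19.8% of all probe sets. They were Hsp89.1 (AT3G07770) at -2.57 ± 0.23, CR88 (AT2G04030) at -1.84 ± 0.18 and SHD (AT4G24190), the form of the endoplasmic reticulum, at -1.19 ± 0.19. Of 6 such HSP70 genes, 3 were called, all lower in zone II, against the same 19.8%. They were MTHSC70-2 at -1.63, Hsp70-15 at -1.02 and BIP1, the HSP70 of the endoplasmic reticulum, at -0.75, the last 2 on s_at probe sets. HSP70T-2, BIP3 and ERD2 were not called, at 0.29, 0.34 and 2.43, and ERD2 lay below 64 in both zones.

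The small heat shock proteins were dim. Of 16, 7 had a mean signal below 64 in both zones and 12 in the dimmer zone, and no detection calls came with the values. Of the 16, 4 were called, against 37.9% of all probe sets, and the median difference was -0.06. That median has no settled sign, since it ran from -0.15 to 0.34 as single arrays were left out.

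Of the called members, 3 were lower in zone II. AT1G54050 (HSP17.4-CIII) had 24.6, 75.4 and 1.9 in zone II, against 465.1, 185.7 and 293.6 in zone I (-4.28 ± 1.14, adjusted p = 0.0117). AT1G53540 (HSP17.6C-CI) had 40.6, 87.4 and 3.5 in zone II, against 175.2, 293.9 and 206.7 in zone I (-3.25 ± 1.02, adjusted p = 0.0266). For both, zone II array 3 was far below the other two, and with 64 added the differences were -1.95 and -1.48. Without zone II array 3 they were -2.77 and -1.88. The call of AT1G54050 was lost without zone I array 1 (-3.95), and that of AT1G53540 without zone I array 1 (-3.41), array 2 (-3.04) or array 3 (-3.29). Both calls were also lost with array 1 of each zone left out (-4.30 and -3.82) and with no intensity trend (adjusted p = 0.0654 and 0.0950). Without zone I array 1 the class held 1 call lower in zone II in place of 3. AT5G47600, annotated as heat shock protein-related and placed here by locus, had 24.5, 74.1 and 56.6 in zone II, against 200.5, 237.9 and 207.9 in zone I (-2.20 ± 0.54, adjusted p = 0.00789, or -1.29 with 64 added).

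The called member higher in zone II was AT5G54660, also annotated only as heat shock protein-related and placed by locus. It had 554.0, 651.9 and 438.2 in zone II, against 123.9, 82.4 and 123.7 in zone I, a 5.00-fold higher signal (2.32 ± 0.33, adjusted p = 0.000239). The zones lay well apart, and the call was kept under every alternative run. AT2G27140 varied widely in zone II, with 588.7, 2184 and 316.5, against 421.2, 434.6 and 410.6 in zone I. It was not called (0.81 ± 0.54, adjusted p = 0.281), and the difference turned on single arrays. It was 0.03 without zone II array 2, and without zone II array 3 it was 1.43 and called (adjusted p = 0.0296).

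Several small proteins known as heat-induced were low in both zones. HSP17.6II (AT5G12020) and HSP17.6A (AT5G12030), neighbours on the chromosome, had zone means of 6.75 and 5.31 in zone II, against 6.83 and 7.58 in zone I. HSP21 (AT4G27670), the plastid form, had 2.2, 6.6 and 86.4 in zone II, against 1.1, 5.4 and 1.4 in zone I, so its difference of 2.43 ± 1.45 (adjusted p = 0.226) rested on zone II array 3. HSP23.6-MITO (AT4G25200) had zone means of 22.8 and 24.4 in zone II and zone I. HSP18.2 (AT5G59720) lay at 1.88 ± 0.86 (adjusted p = 0.112) with zone means of 61.1 for zone II against 16.6 for zone I. AT1G59860 lay at -1.48 ± 0.59 (adjusted p = 0.0729) on an s_at probe set whose annotation names HSP17.8-CI (AT1G07400). It was called without zone II array 1 (-1.80), without zone I array 3 (-1.98) and among the probe sets above the 40th percentile (adjusted p = 0.0498). The other 5 were not called, with AT1G52560 (1.76), AT4G21870 (1.61) and AT5G37670 (1.38) above 0 and AT5G51440 (-0.28) and AT2G29500 (-0.58) below. AT5G37670 was called without the intensity trend (adjusted p = 0.0483) and with 64 added (0.73, adjusted p = 0.0462).

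**Figure D4:**
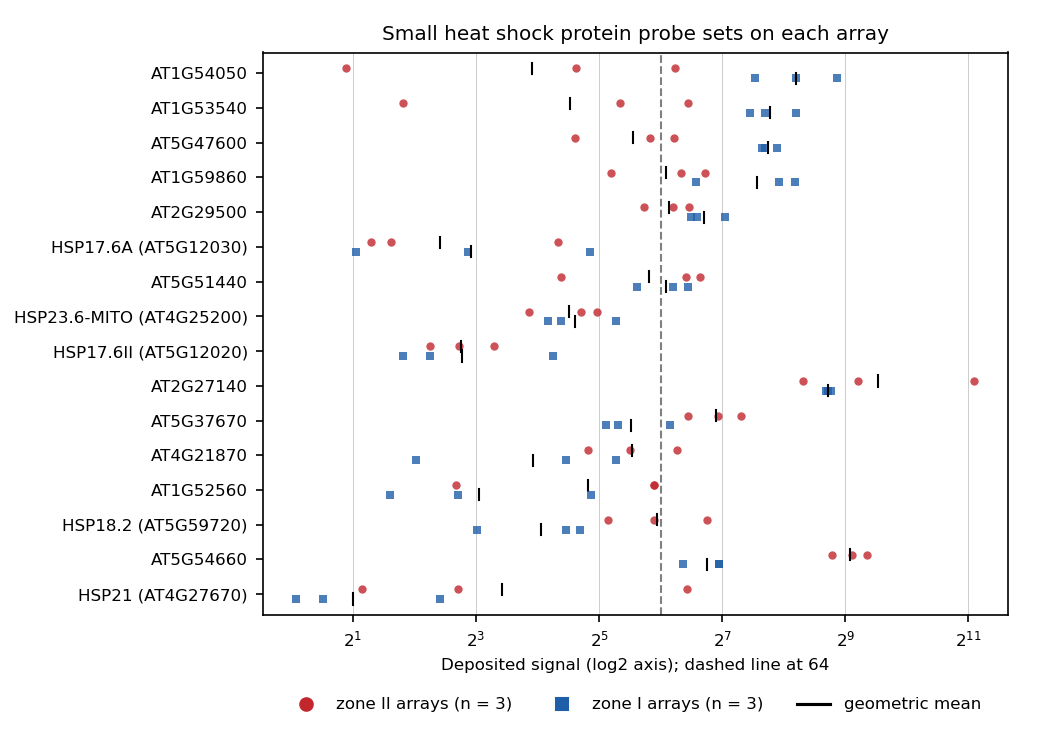
Deposited signal (log2 axis) of the 16 small heat shock protein probe sets on each of the 3 zone II arrays (red circles) and 3 zone I arrays (blue squares), ordered by difference, with geometric means as black bars and a dashed line at 64. Most points lie near or below 64, and AT5G54660 is the row with zone II well to the right of zone I.

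HSP101 (AT1G74310), the disaggregase needed for acquired heat tolerance, had 262.0, 278.6 and 260.3 in zone II, against 184.8, 169.1 and 216.0 in zone I. The zones did not overlap, but the difference of 0.50 ± 0.31 was not called (adjusted p = 0.244). The ClpB relatives CLPB3 and CLPB4, outside the rule, were not called either, at -0.39 and -0.28.

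The 22 members annotated as binding heat shock proteins include J-domain partners of HSP70. Of them 7 were called lower in zone II, or 31.8%, against 19.8% of all probe sets. Another 6 were called higher in zone II, against 18.1% of all probe sets. The member most in favour of zone II was AT1G21660, with 2752, 3764 and 3642 in zone II, against 780.8, 872.9 and 746.2 in zone I (2.07 ± 0.19, adjusted p = 1.32e-05). J8 (AT1G80920), a plastid J-domain protein, had 2708, 1197 and 1004 in zone II, against 746.8, 182.1 and 453.8 in zone I (1.91 ± 0.49, adjusted p = 0.00977, and 0.0780 without the intensity trend). In both zones its highest array was array 1. AT4G36520 (1.30), PTAC5 (1.18), the auxilin-like AUL1 (0.94) and GRV2 (0.83), a protein of endosomes needed for gravitropism, were also called. Of the 6 fits that left out 1 array each, PTAC5 lost its call in 5 (0.63 without zone I array 3) and AUL1 in 4.

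The member most in favour of zone I was GFA2 (AT5G48030), a mitochondrial J-domain protein. It had 195.1, 80.8 and 191.4 in zone II, against 818.9, 1043 and 1121 in zone I, a 6.82-fold lower signal (-2.77 ± 0.36, adjusted p = 0.000130). ARL2 (AT1G59980), a J-domain protein of root gravitropism, had 49.3, 29.3 and 39.5 in zone II, against 202.1, 174.9 and 388.1 in zone I (-2.64 ± 0.53, adjusted p = 0.00233, or -1.57 with 64 added). Its relative ARL1 (AT1G24120) was not called, at 0.50 ± 0.22 (adjusted p = 0.0961), and it was called without zone II array 1. ATERDJ3B (AT3G62600), a J-domain partner of BiP in the endoplasmic reticulum, had 2591, 3107 and 3293 in zone II, against 8672, 6428 and 6939 in zone I (-1.29 ± 0.18, adjusted p = 0.000177). The other members called lower in zone II were ATJ1 (-2.28, or -1.14 with 64 added), AT1G65280 (-1.09), ATJ6 (-0.97) and ATERDJ2A (-0.92). For ATJ1 the call was lost when zone II array 1 or 2 or any zone I array was left out. The other 8 members of the group without a call lay between -0.66 (ATERDJ2B) and 1.06 (AT4G19580), and JAC1, AT1G71000 and AT4G19580 lay below 64 in both zones. Without zone I array 2, 5 members of the whole group of 31 others were called higher in zone II in place of 8.

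Of the 8 members annotated as related to heat shock proteins, 2 were called higher in zone II and 2 were called lower in zone II. Among all probe sets 18.1% were called higher and 19.8% lower, so these counts do not set the 8 members apart. SMXL7 (AT2G29970), a repressor in strigolactone signalling, had 216.3, 130.7 and 179.7 in zone II, against 60.4, 21.7 and 60.4 in zone I (2.00 ± 0.59, adjusted p = 0.0201, or 1.11 with 64 added). The call was lost without zone II array 1 (1.84) or array 3 (1.97), without zone I array 2 (1.51) and with array 1 of each zone left out (2.08). Its relative SMXL2 (AT4G30350) had 334.8, 323.9 and 598.6 in zone II, against 127.7, 110.6 and 124.6 in zone I (1.74 ± 0.35, adjusted p = 0.00255). SMAX1 (AT5G57710), which is degraded in karrikin signalling, lay at 1.15 ± 0.44 (adjusted p = 0.0583), and it was called with 64 added, with robust eBayes and among the probe sets above the 40th percentile. SMXL3, SMXL8 and AT1G76770 were not called, at 0.03, -0.24 and 0.40, and SMXL8 and AT1G76770 lay below 64 in both zones. Called lower in zone II were AT3G10680 (-2.40, or -0.9999 with 64 added) and AT2G03020. AT2G03020 had 8.5, 1.5 and 25.4 in zone II, against 46.5, 163.0 and 122.7 in zone I (-3.84 ± 1.13, adjusted p = 0.0197, or -1.16 with 64 added), on an s_at probe set whose annotation names another gene. Leaving out zone I array 2 (-3.47) or array 3 (-3.68) ended that call, and either did the same for AT3G10680, as did leaving out array 1 of each zone (adjusted p = 0.0578).

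Partners of the members that the rule leaves out were taken from 4 gene lists. Prefoldins, which hand actin and tubulin chains to the CCT ring, were called lower in zone II in 6 of 6, against 19.8% of all probe sets. Their differences lay between -2.24 and -1.42 with a median of -1.98. PFD4 (AT1G08780) had 1246, 1401 and 1247 in zone II, against 6584, 6712 and 5159 in zone I (-2.24 ± 0.17, adjusted p = 5.46e-06). Of 15 co-chaperones of HSP70 and HSP90 measured, 9 were called lower in zone II, against 19.8% of all probe sets, and none was called higher. Their median was -0.77, with 14 below 0 and CHIP at 0.18, and without the intensity trend 4 were called. MGE2 (AT4G26780), a mitochondrial nucleotide exchange factor for HSP70, had 249.5, 298.4 and 238.2 in zone II, against 1115, 1558 and 1472 in zone I (-2.39 ± 0.23, adjusted p = 1.88e-05). Its paralogue MGE1 lay at -0.07 ± 0.24 (adjusted p = 0.847).

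Folding factors of the endoplasmic reticulum, of which ERDJ3B and P58IPK are members too, were called lower in zone II in 8 of 11, against 19.8% of all probe sets, and none was called higher. Their median was -0.93, with 9 below 0, and without the intensity trend 4 were called. CRT1B (AT1G09210), a calreticulin that binds newly made glycoproteins, had 2688, 4254 and 3994 in zone II, against 8485, 10241 and 10334 in zone I (-1.43 ± 0.20, adjusted p = 0.000197). The transcription factors BZIP60 and BZIP28, which act in the unfolded protein response, were not called, at 0.50 and 0.11.

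Heat shock factors, a family of transcription factors that are not all activators of heat shock genes, went both ways. Of 16, 5 were called higher in zone II and 2 were called lower in zone II, with a median of -0.0047. The 7 calls make 43.8% of the list, near the 37.9% of all probe sets. HSFB1 (AT4G36990), a class B factor, had 3809, 3396 and 2223 in zone II, against 212.4, 176.7 and 224.4 in zone I, a 15.1-fold higher signal (3.91 ± 0.24, adjusted p = 2.41e-06). HSFB4 (AT1G46264), known as SCHIZORIZA for its role in root ground tissue fate, had 196.3, 218.0 and 408.4 in zone II, against 2243, 1955 and 2248 in zone I, an 8.26-fold lower signal (-3.05 ± 0.28, adjusted p = 1.44e-05). Of the A1 factors, main activators of the heat response, HSFA1E was called lower in zone II at -2.20 ± 0.59 (adjusted p = 0.0120). Its zone II mean of 38.4 lay below 64, and with 64 added the difference was -1.23. HSFA1A, HSFA1B and HSFA1D were not called, at -0.20, -0.03 and -0.26. HSFA6B (2.13), HSFA7A (1.98), HSFC1 (1.02) and HSFB2B (0.99) were the other factors called higher in zone II. HSFA2, which heat induces, was not called, at -0.93 ± 0.66 (adjusted p = 0.311). Between 2 and 4 of the factors were called higher in zone II when single arrays were left out, the lowest count being reached without zone II array 1 and without zone I array 2.

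The authors' deposited table gave the same sign for 77 of the 80 members, with its direction taken as zone II over zone I. At an adjusted p under 0.05 the authors' deposited table held 58 of the members, 43 lower in zone II and 15 higher in zone II, against 45.6% of all probe sets. All 50 members called here were among these 58 with the same sign.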

How the data were processed

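Per the labels' protocols, RNA from a PicoPure kit was amplified with Ovation Pico WTA reagents and given a biotin label. The deposited table holds signal intensity for 22810 probe sets, made with MAS5 and Affymetrix Expression Console per the submitters' processing notes. Versions, settings and the array's design: not given in the sources used here. Deposited intensities are linear, with a 2% trimmed mean of about 500 on all 6 arrays. The authors' own comparison gives, per probe set, a log2 fold change with its p-value, raw and adjusted. No source names the test, and the direction was taken from a correlation across probe sets (r = 0.87) with zone II minus zone I.

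The 64 control probe sets were left out, log2 was taken with no offset, and zones were compared in limma 3.58.1 (R 4.3.3) with lmFit, eBayes with an intensity trend, two-sided, and Benjamini-Hochberg adjustment over 22746 probe sets. Members, classes and lists were chosen with earlier results of these data known. In each class (chaperonins by subclass), the 3 called members with the largest difference in each direction and the member with the highest mean signal, and from each list the called gene with the largest difference in each direction, were to be named with all values; the other named genes were chosen after their values were seen. Classes came from locus for 50 members and from annotation text for 30. Neighbours and most symbols of members came from the RefSeq table of TAIR10.1, where all 80 loci were found. For the SMXL genes, SMAX1, AT1G54050 and AT1G53540 it gave only the locus as symbol, so their names in the text did not come from there. Symbols of genes in the lists came with the lists. No sequences were used here. The level of a probe set served to pick members to name, and no result rests on the level of one probe set against another's. The labels do not say whether replicate numbers pair the arrays of the zones. Deviations from the zone means correlated at 0.004 to 0.037 between same-numbered arrays, and at -0.038 to 0.003 between the others. Such low values cannot decide it, and the main fit took the arrays as unpaired. The fit was tested on simulated data. Precision is limited by the number of arrays. The alternatives are the replicate block, 16 or 64 added, quantile normalization, equal medians, probe sets above the 40th percentile alone, no intensity trend, robust eBayes, array weights, s_at probe sets left out, each array left out, and array 1 of both zones left out together.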

Additional observations from a re-analysis of the deposited data

How the results depend on the processing

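Of the 50 members called, 36 kept the call under all 16 alternative fits that held them, and none of the 50 changed sign in any. Chaperonins were called lower in zone II in 18 or 19 of 20 as single arrays were left out, HSP90 in 2 of 3, prefoldins in 6 of 6. The small heat shock proteins, with a median of -0.06, gave -0.31 after quantile normalization, -0.58 for the 5 above the 40th percentile, 0.23 without array 1 of both zones, and -0.15 to 0.34 with single arrays left out. They had 1 or 2 calls higher in zone II (2 with 64 added, 2 without the intensity trend) and 1 to 4 lower (1 without the trend, 1 without array 1 of both zones). The 31 others, with a median of 0.40, gave 0.0601 with 16 added, 0.0201 with 64 added, 0.0396 without array 1 of both zones, and between -0.0669, a change of sign without zone I array 1, and 0.28 with single arrays left out. They had 5 to 7 calls higher in zone II and 6 to 9 lower with single arrays left out. Without the intensity trend HSP70 had 1 call higher in zone II, HSP90 1 lower, heat shock factors 3 higher, co-chaperones 4 lower and folding factors of the endoplasmic reticulum 4 lower. HSP90 had 1 without s_at probe sets. Heat shock factors had 2 to 4 calls higher in zone II and 1 or 2 lower, with medians of -0.0559 to 0.25, as single arrays were left out. Without array 1 of both zones they had 3 higher and 1 lower with a median of 0.19, and the prefoldin median was -1.85. The 40th percentile left 18 members untested, and the median of the remaining 62 was -0.95. The cause of these moves was not tested, beyond the fewer members or arrays. With the replicate number as a block, 8445 probe sets were called, against 8623, and no member's call changed. Whether the numbers pair the arrays is not known. Signals below 64 in both zones limit 12 members.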
